A study of Homo sapiens with 40 samples.

Results

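Alternative first exons are first exons of 1 gene that do not overlap each other, so that the gene's RNAs begin in separate places. They were defined by the exon positions in the deposited catalogue of transcript models: within a gene, chromosome and strand, overlapping first exons were joined into 1 cluster, and a gene with at least 2 clusters was a member. The catalogue held 19972 models in 9470 gene loci. Of its 10422 first-exon clusters, 1805 lay in the 853 member genes, and these genes held 3152 models. Among the 4728 loci with at least 2 models, in which alternative first exons could be found at all, members made up 18.0% (95% Wilson interval 17.0% to 19.2%, counting error only), and the other 3875 had 1 cluster. The rule used exon positions, so the number of clusters and the distances between them are descriptions of the choice and were not tested.

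The study sequenced polyadenylated RNA of neural progenitor cells (NPC), made by inhibiting both arms of SMAD signalling, and of their source, the established human embryonic stem cell line H9 (ESC), which the labels call control. RNA was separated by ribosome load (Frac-seq) into cytosol, monosome, light polyribosome with 2 to 4 ribosomes and heavy polyribosome with 5 or more, and amplified with 15 PCR cycles, or 17 for monosomes. Each of the 8 combinations of cell type and fraction had 2 long-read libraries, made by R2C2, which reads circularised cDNA repeatedly, and 3 short-read libraries, 40 libraries in all. The catalogue holds positions only, with no count and no value per library, so depth is unknown and neither NPC with ESC nor the fractions with each other could be compared. The catalogue does not say which libraries each model came from, and the labels do not say whether the 2 or 3 libraries of a group came from separate cultures.

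A gene with several promoters can start transcription in different places, in different cells or under different signals. Each promoter has its own first exon, which is usually spliced to a common set of downstream exons. Where the coding region begins in a common exon, the protein is the same and only the 5' untranslated region (5' UTR), the leader that scanning ribosomes cross before the start codon, differs. Where it begins in the first exon itself, the proteins differ at the amino terminus, which is how several genes make a mitochondrial and a nuclear or cytosolic form of 1 enzyme.

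The starts of first exons of 6 listed genes are shown to make the separate start points visible: UNG and DUT, enzymes that keep uracil out of DNA, MUTYH, a DNA repair glycosylase, OTX2, a homeobox factor of the forebrain, SMAD1, a transducer of BMP signals, and CREM, a cAMP-responsive transcription factor. Each line holds 30 bases of the transcribed strand from RefSeq (GRCh38.p14), 5' to 3', with the 15 bases before the start in lower case and the first 15 bases of the first exon in capitals.
UNG first exon 1, chr12:109097586-109097615, plus strand: cgcttggcgccaattGCTGACCGCCACAGC
UNG first exon 2, chr12:109098177-109098206, plus strand: gggttcccagtcaccGCGACGCTCCTCGGG
DUT first exon 1, chr15:48331414-48331443, plus strand: tgcttccgaggtcatGTTCCCAGGACGGGC
DUT first exon 2, chr15:48332178-48332207, plus strand: gctccctgcggcgacGCTCATCGTGCGCTC
MUTYH first exon 1, chr1:45340400-45340429, minus strand: gtggctagttcaggcGGAAGGAGCAGTCCT
MUTYH first exon 2, chr1:45340106-45340135, minus strand: gtcgaacttccgttcAGACGTCCCGGGTCC
MUTYH first exon 3, chr1:45339956-45339985, minus strand: ctcgcgggaggtaatCTTTCTCTCCTGCTC
OTX2 first exon 1, chr14:56810481-56810510, minus strand: cgtcaaaaagttgccAGAGAGGCGCTTTCT
OTX2 first exon 2, chr14:56805653-56805682, minus strand: cctcgcctagtccgtGCTCTTTTTAAGTTA
SMAD1 first exon 1, chr4:145481615-145481644, plus strand: ccggtagaagggggtGGCTCCGGCCGCTCC
SMAD1 first exon 2, chr4:145481756-145481785, plus strand: agcgtgtgagcgggcGGGCGGGCAGGCGAG
SMAD1 first exon 3, chr4:145482770-145482799, plus strand: tctcgttcctttcccTTTACCGGAGTCGAT
CREM first exon 1, chr10:35126878-35126907, plus strand: cggccggcagggggcGGAGTTCGAGCCTGG
CREM first exon 2, chr10:35195077-35195106, plus strand: tgtcattgtgatgtcAGTCCTCCTGCTTAT
Of these 14 starts, 12 had a pyrimidine before the start and a purine as first base, the exceptions being MUTYH first exon 3 and SMAD1 first exon 3. The dinucleotide CG occurred in 13 of the 14 windows, with 5 copies in DUT first exon 2 and in SMAD1 first exon 2, and was missing from CREM first exon 2. These genes were picked for display, and the counts do not stand for other genes. Each start shown is the outermost of its first-exon cluster, and other models of the cluster can begin further downstream. In MUTYH first exon 2, 1 model began at the start shown, and the others began at 45340036, 45340030 and 45340023. Among other starts read, CG was missing from PAX6 first exons 1 and 3 and LIN28B first exon 2. It was present in LIN28B first exon 1 and TGIF1 first exons 2, 3 and 4. Of these starts, only TGIF1 first exons 2 and 4 lacked the pyrimidine before the purine.

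Most member genes had a simple arrangement. Of the 853, 773 had 2 clusters, 64 had 3, 14 had 4, SOCS2 had 5 and TSPAN4 had 6. Protein-coding genes made up 800 members, and 35 were long non-coding RNA genes. A single model carried 1112 of the 1805 clusters (61.6%), and only 160 genes had at least 2 clusters of at least 2 models each. The share of loci with alternative first exons was 12.9% (Wilson 11.6% to 14.4%) among those with 2 models, 18.3% (16.1% to 20.7%) with 3, 25.0% (21.7% to 28.5%) with 4, 28.4% (23.7% to 33.7%) with 5 and 26.6% (22.7% to 30.8%) with 6 or more. The share was thus lower with 2 or 3 models than with more, and the part of model number in the comparisons with 1-cluster genes was not tested.

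The rule separates first exons by a single base of overlap. Just inside it, 48 pairs of neighbouring clusters had a gap of at most 10 nt, down to 2 nt in BAD, C18orf32, C7orf25 and DDX41. Just outside it, 65 loci counted as 1 cluster were held together by an overlap of at most 10 nt, down to 1 nt in ATP5MC1, HUS1 and UXT. TSPAN4 and TPRKB were also inside by 2 nt, and first exons 2 and 3 of MUTYH lay 5 nt apart.

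Neighbouring first exons were mostly close. Over the 952 pairs of neighbouring clusters, the starts lay 22 to 636663 nt apart, with a median of 629.5 nt (interval 558 to 690 nt) and quartiles of 308 and 5425 nt. Starts were less than 1000 nt apart in 582 pairs (61.1%), at least 10000 nt apart in 193 (20.3%) and at least 100000 nt apart in 37 (3.89%). The gap between the exons had a median of 386 nt (interval 354 to 470 nt). First exons had a median length of 137 nt in the most upstream clusters and 172 nt in the downstream ones.

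**Figure D1:**
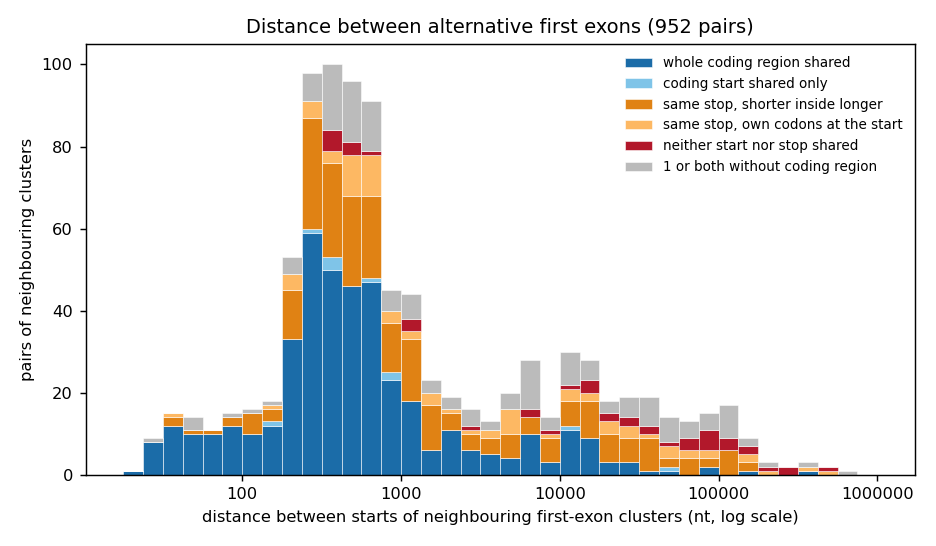
Number of pairs of neighbouring first-exon clusters (vertical axis) by the distance between their starts in nt (horizontal axis, log scale), stacked by how the coding regions of the pair relate. The tallest bars lie between 100 and 1000 nt, where most pairs share a whole coding region, and the tail beyond 100000 nt holds 37 pairs, of which 2 share a coding start.

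Where both clusters were coding, an identical coding region on both sides was the most common arrangement. Among the 794 pairs with coding models on both sides, 428 (53.9%, Wilson 50.4% to 57.3%) had a model on each side with an identical coding region, and 10 more shared only the start codon. In 236 pairs (29.7%) the shorter coding region lay within the longer and ended at the same stop. In 76 pairs (9.57%) the stop was shared but each side began with codons of its own, and in 44 (5.54%) neither start nor stop was shared. The other 158 of the 952 pairs lacked a coding model on at least 1 side. Counted by gene, 397 of the 712 genes with at least 2 coding clusters (55.8%, Wilson 52.1% to 59.4%) shared a coding start between clusters, and 387 (54.4%) shared a whole coding region.

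Sharing was most common between close starts. A coding start was shared by 53 of 60 coding pairs (88.3%, Wilson 77.8% to 94.2%) under 100 nt apart, by 198 of 311 (63.7%, 58.2% to 68.8%) from 100 to 499 nt and by 90 of 145 (62.1%, 54.0% to 69.6%) from 500 to 999 nt. It was shared by 63 of 140 (45.0%, 37.0% to 53.3%) from 1000 to 9999 nt, by 32 of 114 (28.1%, 20.6% to 36.9%) from 10000 to 99999 nt and by 2 of 24 (8.33%, 2.32% to 25.8%) beyond. The intervals of the outer classes do not overlap, while those from 100 to 499 and from 500 to 999 nt almost coincide. A second exon at the same splice acceptor was found in 566 of the 952 pairs (59.5%), from 76.3% of pairs 500 to 999 nt apart to 8.11% of those at least 100000 nt apart. Since the pairs come from 1 catalogue, these intervals cover counting error only.

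**Figure D2:**
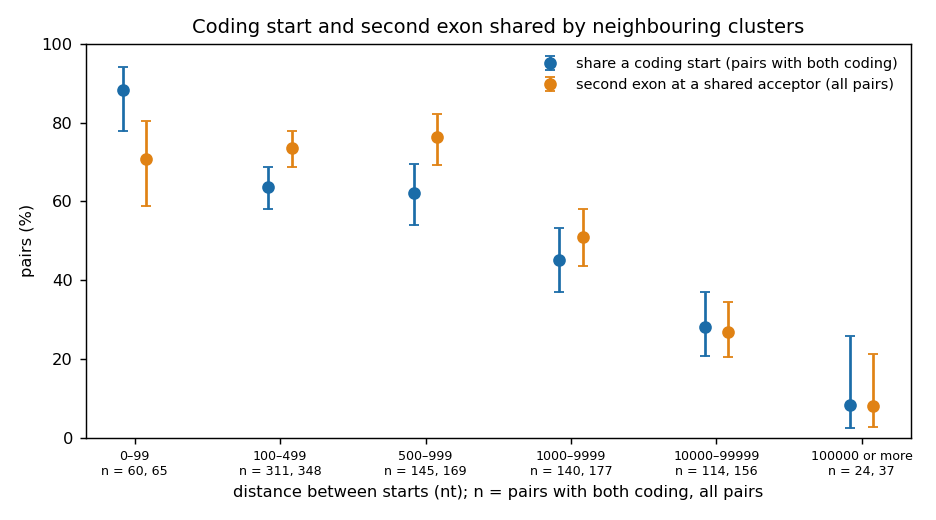
Percentage of neighbouring pairs (vertical axis) that share a coding start, in blue, and a splice acceptor of the second exon, in orange, by distance between starts in nt (horizontal axis), with 95% Wilson intervals as bars. The coding start falls from 88.3% under 100 nt to 8.33% at 100000 nt or more, and the acceptor reaches 76.3% at 500 to 999 nt.

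Most member genes had several coding starts. Of the 744 member genes with at least 2 coding models, 465 (62.5%, Wilson 59.0% to 65.9%) had at least 2 coding starts, against 1357 of 3323 genes (40.8%, 39.2% to 42.5%) with 1 cluster. The coding region began in exon 1 in 36.1% of the 2750 coding models of members and in 49.0% of the 10338 of 1-cluster genes. It began in exon 2 in 41.8% of members' models and in 31.3% of those of 1-cluster genes. Models of 1 gene share exons and are not replicates, and no test was made.

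The 5' UTR differed in length between first exons in both directions. Over the 794 coding pairs, the median was 168.5 nt in the upstream cluster and 199 nt in the downstream one, and the median difference, upstream minus downstream, was -18.5 nt (interval -33.5 to -2 nt). In the 438 pairs that shared a coding start, where both leaders end at 1 start codon, the medians were 187.25 nt upstream and 214 nt downstream, with a median difference of -1.5 nt (interval -18 to 11 nt) that includes 0. The upstream leader was the longer in 215 of these pairs and the downstream one in 223. The size of the difference was nevertheless at least 100 nt in 191 of the 438 pairs, and under 10 nt in 28. Where clusters shared several coding starts, the start with the largest difference was taken, which can raise these sizes.

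The sign of the difference varied with distance. With starts under 1000 nt apart and a shared coding start, the upstream leader had a median of 172 nt and the downstream one 214 nt (341 pairs, difference -18 nt, interval -34 to -1 nt). With starts at least 1000 nt apart, the medians were 233 nt upstream and 212 nt downstream (97 pairs, difference 64 nt, interval 21 to 92 nt). The rule limits the first of these sets, because an upstream first exon must end before the next one begins, and starts less than 100 nt apart leave room only for a short upstream exon. Over all coding pairs, with or without a shared start, the median difference was -134.5 nt under 100 nt, -33.5 nt from 100 to 499 nt and 26 nt from 500 to 999 nt. It was 25 nt from 1000 to 9999 nt, 38.5 nt from 10000 to 99999 nt and -36 nt in the 24 pairs beyond, so it was not positive at every longer distance. Over all coding models, the median leader was 176 nt in members and 143 nt in genes with 1 cluster.

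**Figure D3:**
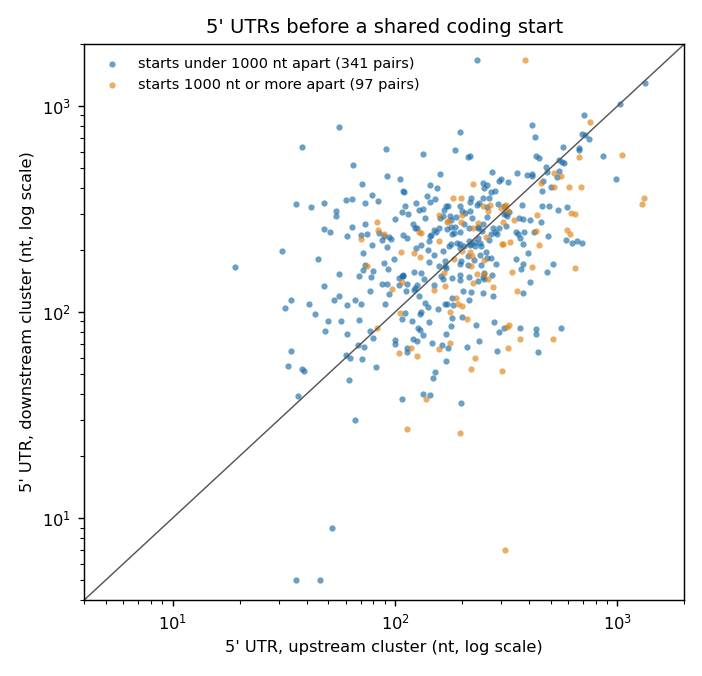
Length of the 5' UTR in the upstream cluster (horizontal axis, nt, log scale) and in the downstream cluster (vertical axis, nt, log scale) for the 438 pairs that share a coding start, 1 point a pair, in blue for starts under 1000 nt apart and in orange for the rest, with the line of equal length. Points lie on both sides of the line, 215 with the longer leader upstream and 223 with it downstream.

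Most downstream first exons began inside the first intron of the longer models. Of the 952 downstream clusters, 509 (53.5%, Wilson 50.3% to 56.6%) lay in a first intron of a model from a more upstream cluster and 56 in a later intron. Another 333 (35.0%, 32.0% to 38.1%) overlapped a later exon of such a model, and 54 lay partly or wholly outside the introns and exons of those models. Of the 333 over a later exon, 287 began upstream of that exon and ran into it, and 46 began within it. A coding start was shared by 61.0% of coding pairs in the first intron, 20.5% in a later intron and 55.6% over a later exon, and by 0 of 22 elsewhere, which allows a share of up to 14.9% by the Wilson interval.

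Most upstream first exons, and a smaller share of downstream ones, lay at an annotated gene start. RefSeq's promoter windows (GRCh38.p14) held an entry for 709 of the 853 member genes. A RefSeq start lay within 100 nt for 555 of 709 most upstream clusters (78.3%, Wilson 75.1% to 81.2%) and for 420 of 791 downstream ones (53.1%, 49.6% to 56.6%). Among downstream clusters the share was 66.0% in introns (61.7% to 70.2%) and 35.1% over a later exon (29.6% to 40.9%). For genes with 1 cluster it was 94.2% (93.3% to 94.9%). Counted by gene, 297 of the 709 had a RefSeq start at the most upstream cluster and at another, 258 at the most upstream only, 99 only at a downstream one and 55 at none. In the catalogue alone, a model cut short at its 5' end and a true downstream start cannot be told apart.

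The bases around the starts could be read for clusters that lie inside a RefSeq window. CG pairs are frequent at promoters in CpG islands, and a pyrimidine before a purine is the usual start of RNA polymerase II. A pyrimidine followed by a purine at the first base was present at 78.6% of 583 most upstream starts (Wilson 75.0% to 81.7%), 75.2% of 428 downstream starts (70.9% to 79.1%) and 78.1% of 3000 starts of 1-cluster genes (76.6% to 79.5%), and at 61.5% of all 35116 RefSeq starts. The dinucleotide CG occurred in the 30 bases around 92.6% of most upstream starts, 89.5% of downstream starts, 95.9% of 1-cluster starts and 65.7% of all RefSeq starts. These clusters lie in RefSeq windows by construction and do not stand for the rest. A gene on the other strand started within 1000 nt upstream of 17.4% of most upstream clusters (15.0% to 20.0%), 12.5% of downstream clusters (10.5% to 14.8%) and 18.1% of clusters of 1-cluster genes (16.9% to 19.4%).

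Genes with the most first exons often kept 1 protein behind all of them. SOCS2, which dampens cytokine and growth hormone signalling, had 5 first exons, all of 1 model. They led to the same 199 codons through leaders of 564, 537, 451, 274 and 476 nt, in order from the 5' end. HNRNPF, a G-tract-binding splicing factor, kept 415 codons behind 4 first exons, with leaders of 301 to 429 nt. MAD2L2, a subunit of DNA polymerase zeta, kept 212 codons behind 4, with leaders of 87, 224, 139 and 367 nt. LIMD2 kept 128 codons, and MRPL28, a protein of the mitochondrial ribosome, kept 257, with leaders of only 9 to 69 nt. In these 5 genes, 1 coding start was used from every first exon.

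Others changed the protein at some of their first exons. TSPAN4, a tetraspanin, had up to 239 codons from each of its 4 most upstream first exons, 331 from the fifth and 175 from the sixth. The 175 codons were not particular to the sixth, since a model of the most upstream first exon had 175 with the same start and stop. Other models of that most upstream first exon had 205 and 166 codons. MXI1, a MAX partner that opposes MYC, had 235, 229, 193 and 193 codons, so that the 2 most upstream first exons gave the longer coding regions. PHF23 had up to 404 codons from the most upstream first exon and 274 from each of the other 3. NSD1, a histone H3 lysine 36 methyltransferase, had its most downstream first exon 157828 nt beyond the one before it. Neither coding start nor stop was shared, but that first exon lay beyond the end of all upstream NSD1 models. Upstream coding regions of 409, 410 and 678 codons ran to within 2 nt of the model end. A changed protein can therefore not be read from the NSD1 models.

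Of the 10 genes with the widest distances, 6 joined models that do not overlap. RORA, a nuclear receptor, had starts 636663 nt apart, but its upstream model had 2 exons and no coding region and ended before the second first exon, which led to 461 codons. OXR1, EHBP1, COL4A5, RNF220 and CLASP2 likewise had their second first exon beyond the end of the upstream models, at distances of 455939, 339096, 252949, 226795 and 216528 nt. For these 6 genes the catalogue shows no model that carries the upstream first exon through to the exons of the other.

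FGF13 and FGF12, fibroblast growth factor homologues that bind sodium channels, each had a second first exon in a later intron of the upstream model. The starts of FGF13 lay 493289 nt apart and led to 256 codons from the upstream and 246 from the downstream first exon. Those of FGF12 lay 318508 nt apart and led to 182 and 244 codons. In both genes the stop was shared and each side began with codons of its own. The downstream leader was long in both: 267 nt upstream and 731 nt downstream in FGF13, and 206 and 828 nt in FGF12. NCALD, a neuronal calcium sensor, kept 194 codons across 333329 nt, with leaders of 277 nt upstream and 133 nt downstream. MAP2, a dendritic microtubule protein, had up to 529 codons behind its upstream first exon and up to 112 behind one 237430 nt downstream, with neither start nor stop shared.

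First exons whose coding regions share a stop codon but not a start can lead to coding regions of very different length. In each of the 312 pairs with a shared stop and different starts, the models with a common stop that differed most in codons were compared. Of these models, the longer coding region came from the upstream cluster in 208 pairs and from the downstream one in 103. The median of these largest differences was 77.5 codons (quartiles 36.75 and 156). It can exceed the difference between the longest coding regions, and the direction can be the opposite. First exons 1 and 2 of SHMT2 had up to 505 and 484 codons, but counted as longer downstream, by 140 codons. SYMPK, a scaffold of mRNA 3' end processing, had up to 1275 codons from the upstream first exon and 263 from the downstream one, and NUP133, a nuclear pore protein, had 1091 upstream and 108 downstream. FLII had 1270 codons upstream and 398 downstream, DDX54, a DEAD-box helicase, had 867 and 6, and TELO2, which stabilises PI3K-related kinases, had 838 and 104. AP3D1, SAFB, SH2B1 and EML2 had differences of 719, 631, 599 and 549 codons. In each of these named genes the downstream first exon overlapped a later exon of the longer model and gave the shorter coding region. None of these downstream first exons lay within 100 nt of a RefSeq start, except that AP3D1 could not be checked, as no RefSeq promoter window was matched to it. Each was carried by 1 model, or by 2 in DDX54, and the coding region of NUP133 began 1 nt from the model's first base. Models cut short at the 5' end cannot be told apart here from true downstream starts. The short coding regions are calls on the models, and no protein was measured.

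Before a shared coding start, the leaders of the 10 genes with the largest difference differed by at least 483 nt. TSSC4, a spliceosome assembly factor, had a median leader of 234 nt upstream and 1667 nt downstream, where the first exon was 1644 nt long. FAM156A had medians of 382 nt and 1665 nt before the same 214 codons. Its leaders overlapped in range, with 341 and 423 nt in the upstream models and 378, 1665 and 2439 nt in the downstream ones. ZNF331, a zinc-finger protein, had 1321 nt upstream and 356 nt downstream before 464 codons, and STARD10, a lipid-transfer protein, had 1292 and 334 nt before 292 codons. TPRKB, a subunit of the KEOPS complex that modifies transfer RNA, had 56 nt upstream, in a cluster of 9 models, and 789 nt downstream in 1. The second first exon of TPRKB began 53 nt downstream of the first, just beyond its splice donor, and was 767 nt long. C2orf76, MED22, CCM2, AGPAT1 and MEPCE completed the 10, with differences, upstream minus downstream, of -593, -553, 548, -529 and 483 nt. The longer leader did not always go with the longer first exon: that of CCM2, 988 nt, followed a first exon of 112 nt, and that of MEPCE, 647 nt, a first exon of 251 nt, against 428 nt for the exon of its shorter leader. The CCM2 leader of 988 nt preceded only 143 codons, which began in exon 8. In 4 of the 6 downstream CCM2 models the coding region began in the first exon, with up to 445 codons.

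Among listed genes with mitochondrial products, 6 of 17 with at least 2 models had alternative first exons (35.3%, Wilson 17.3% to 58.7%), an interval that includes the 18.0% of all such loci. They were UNG, DUT, SHMT2, KARS1, MUTYH and TXNRD2. UNG removes uracil from DNA in the nucleus and in mitochondria. Its first exons began 591 nt apart and led to 314 codons from the upstream and 305 from the downstream one, with the same stop, codons of their own at the start, and leaders of 79 and 135 nt. Both began within 100 nt of a RefSeq start. DUT, the dUTPase that also has a nuclear and a mitochondrial form, had 231 and 142 codons in the 2 models of its upstream cluster and 165 in the downstream one, 764 nt away, again with 1 stop.

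SHMT2, a serine hydroxymethyltransferase of mitochondrial folate metabolism, had 505 or 344 codons from its first cluster and 484 from each model of the other two. The coding start of those 484 codons lay in a common exon, and the leaders before it ranged from 88 to 323 nt. KARS1, the lysyl-tRNA synthetase of cytosol and mitochondria, had 635 codons from the upstream first exon, with a leader of 10 nt, and 626, 598 or 442 from the downstream one. MUTYH had 537 and 536 codons from its first cluster, where the coding region began in the first exon. From the second it had 430 to 533 and from the most downstream 522, and in these the coding region began in later exons. TXNRD2, the mitochondrial thioredoxin reductase, had 520 codons upstream and 151 in both models of a cluster 60586 nt downstream in a later intron. The upstream model and 1 of the downstream models were decay candidates, with the stop codon more than 50 nt before the last exon junction.

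The sequence around 3 of these start codons is shown because each is a called coding start inside a first exon. Each line has 12 bases before the ATG, which is in capitals, and 15 after it, from RefSeq (GRCh38.p14), 5' to 3'.
KARS1 first exon 2, model of 598 codons, chr16:75647622-75647651, minus strand: ccctccgggaagATGgcggccgtgcaggcg
MUTYH first exon 1, models of 537 and 536 codons, chr1:45340237-45340266, minus strand: ctgtcggcggccATGacaccgctcgtctcc
TXNRD2 first exon 1, model of 520 codons, chr22:19941777-19941806, minus strand: acgatggcggcaATGgcggtggcgctgcgg
All 3 ATGs lie inside the first exon, so the codons that follow at once belong to that exon. The 12 bases before the ATG of TXNRD2 hold another ATG in the same frame. In KARS1, the models of 626 and 442 codons carry the same first exon 2 but start in later exons. The ATG shown for KARS1 therefore also separates models of 1 first exon.

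**Figure D4:**
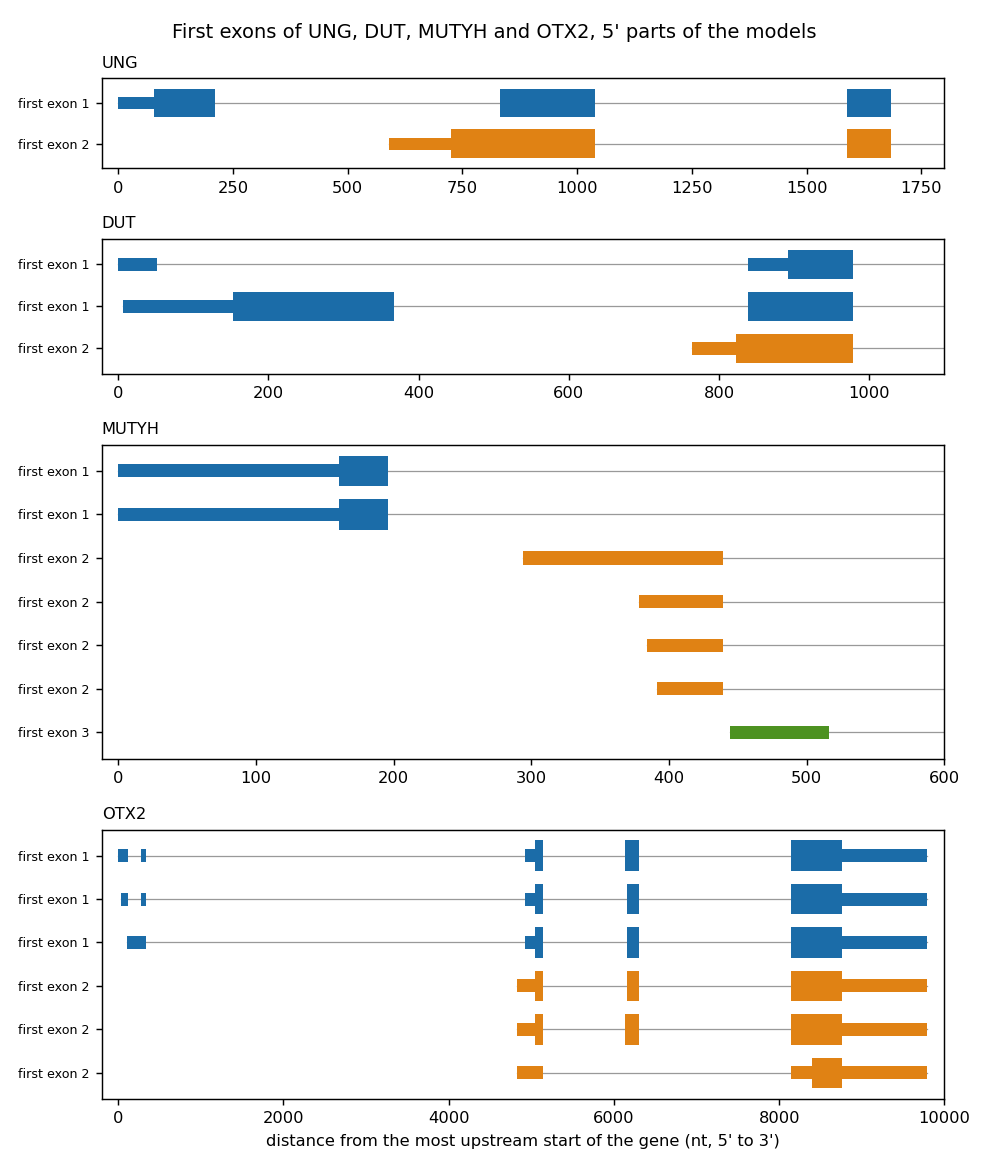
First exons of UNG, DUT, MUTYH and OTX2 drawn to scale by distance from the gene's most upstream start (horizontal axis, nt), 1 row per model, with thick boxes for coding and thin boxes for untranslated sequence, and a colour for each first exon. The 2 first exons of UNG start 591 nt apart and each holds a coding start of its own, while in OTX2 the coding start lies beyond first exon 1 and within first exon 2, 4828 nt downstream, in 5 of 6 models.

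Listed neural progenitor and neuronal genes with at least 2 models had alternative first exons in 5 of 7 cases (71.4%, Wilson 35.9% to 91.8%), against 18.0% of all such loci. The list is short and was drawn up with results of these data known, so the count is a description. Besides MAP2 these were PAX6, OTX1, OTX2 and ZBTB16. OTX1, a homeobox factor of the cortex, kept 354 codons behind leaders of 593 nt upstream and 251 nt downstream, 1087 nt apart. OTX2 had leaders of 277 to 350 nt before its usual coding start from the upstream cluster and of 214 nt from the downstream one, and both clusters gave 289 and 297 codons. A sixth OTX2 model began its coding region further on and had 120 codons and a leader of 569 nt. ZBTB16, a zinc-finger repressor, kept 674 codons behind 3 first exons with leaders of 370, 161 and 149 nt.

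PAX6, the paired-box factor of eye and forebrain, had 3 first exons and 9 models. The first gave 422 codons with a leader of 453 nt. The second cluster, of 7 models 6623 nt downstream, gave 369 to 436 codons from the same coding start with leaders of 369 to 524 nt. The most downstream lay 5321 nt beyond, in a later intron, and gave 281 codons, starting further inside the same coding region, behind a leader of 1026 nt. Several PAX6 coding regions ran to the last base of the model, so their codon counts are those of the model and not of a region closed by 3' untranslated sequence.

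Of the listed pluripotency genes with at least 2 models, 1 of 7 had alternative first exons (14.3%, Wilson 2.57% to 51.3%), an interval that includes the 18.0% of all such loci. It was LIN28B, which blocks the maturation of let-7 microRNAs. Its upstream first exon belonged to a model with no coding region, and the downstream one, 16455 nt away in a later intron, led to 244 codons with a leader of 165 nt. That coding region ran to within 2 nt of the model's 3' end, so its codon count is that of the model.

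SMAD signalling is the pathway that was inhibited to make NPC, and 4 of its 5 listed genes with at least 2 models had alternative first exons (80.0%, Wilson 37.6% to 96.4%), against 18.0% of all such loci. This list too is short and was drawn up with results of these data known. SMAD1 kept 466 codons behind 3 first exons, with leaders of 299, 444 and 212 nt. SMAD2, a transducer of TGF-beta and activin signals, kept 468 codons, with leaders of 126 and 430 nt in the 2 models of its upstream cluster and 89 nt in the downstream one. TGIF2, a homeodomain corepressor of SMADs, kept 238 codons with leaders of 90 and 171 nt upstream and 155 nt downstream. Its relative TGIF1 changed the protein instead, with 287, 253, 273 and 253 codons from its 4 first exons. Clusters 1 and 3 of TGIF1, from the 5' end, held a coding start, and clusters 2 and 4 led to a start in a common exon with leaders of 379 and 216 nt.

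Of the listed genes known for alternative promoters, 5 of 16 with at least 2 models were members (31.2%, Wilson 14.2% to 55.6%), and the 18.0% of all such loci lies within that interval. CREM, whose internal promoter is known for short repressor forms, had 7 models in its upstream cluster and 1 in a cluster 68199 nt downstream. The downstream model had 109 codons, its own start in the first exon and a leader of 98 nt, and the coding models upstream had 116 to 179 codons. GNAS, the alpha subunit of the stimulatory G protein, had 363 codons upstream and 336 downstream, 48417 nt apart. POR, the electron donor of microsomal cytochromes P450, had up to 681 codons upstream behind a leader of 27 nt and 634 downstream behind one of 239 nt. PAX6 and SHMT2 were also on this list.

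Of the listed splicing and RNA-binding proteins, 5 of 27 were members (18.5%, Wilson 8.18% to 36.7%), close to the 18.0% of all loci. HNRNPF and PCBP4 shared a coding start between first exons, in PCBP4 with 404 codons on both sides and leaders of 236 and 326 nt upstream and 184 to 309 nt downstream. HNRNPU, a nuclear matrix RNA-binding protein, had 826 and 807 codons upstream and 102 in a downstream model whose coding region began 2 nt from its first base. HNRNPA1 and QKI, a regulator of splicing and of mRNA stability, each had a downstream first exon over a later exon in a model with no coding region.

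**Figure D5:**
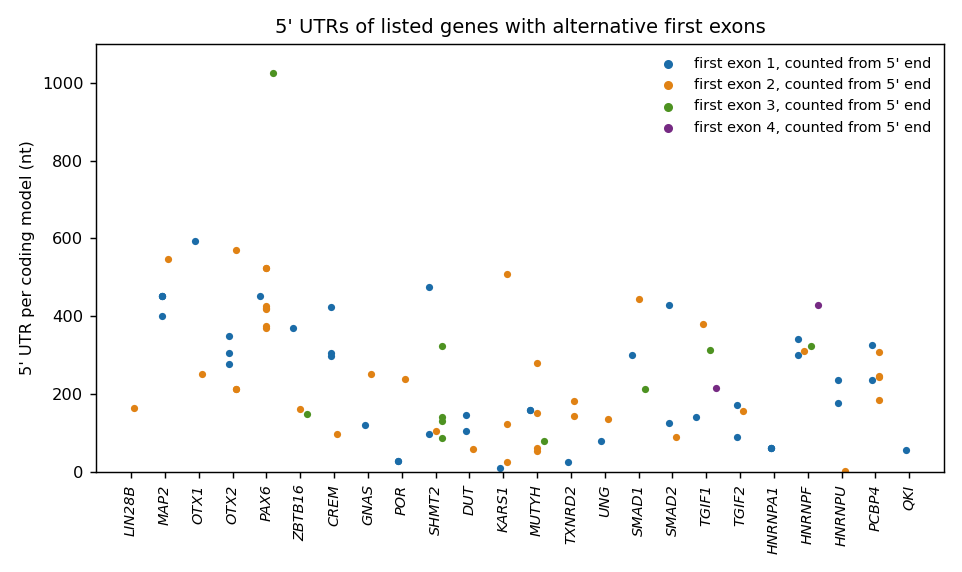
Length of the 5' UTR in nt (vertical axis) of each coding model of the listed genes with alternative first exons (horizontal axis), 1 point a model, coloured by first exon counted from the 5' end. OTX1 has 593 nt from first exon 1 and 251 nt from first exon 2, the highest point is first exon 3 of PAX6 at 1026 nt, and the first exons of PCBP4 overlap in range.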

How the data were processed

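The deposited file lists positions in nt, counted from 1, of transcripts, exons and coding regions in the authors' transcript models, the only values used (measure "other", with no count, signal or ratio). Tools listed, with no role, in the submitters' processing notes are Salmon 1.9.0 and STAR 2.7.8a. How the models were built and their coding regions called, with which annotation and build, is not given here in the sources. Against RefSeq windows of GRCh38.p14, GT followed 1871 of 1901 first exons (98.4%) and ATG stood at 1805 of 1887 coding starts (95.7%), so coordinates are printed with that build.

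First exons were joined by overlap of at least 1 nt within gene, chromosome and strand. Distances run between the outermost starts of neighbouring clusters. A coding relation is the closest among the models of 2 clusters. Codons include the last deposited codon. The codon difference of a pair is the largest between models of its 2 clusters that end at the same stop. A cluster's 5' UTR is the median over its coding models. Before a shared coding start, it is the median over the models with that start. Where neighbouring clusters shared several coding starts, the one with the largest difference in leader was taken. Members and lists were chosen with earlier results of these data known. Named genes are the 10 with most clusters, widest distance, largest codon difference and largest leader difference before a shared start, plus all list members, and not every gene so chosen is reported. BAD, C18orf32, C7orf25, DDX41, ATP5MC1, HUS1 and UXT were named after their values were seen. Shares have 95% Wilson intervals and medians have binomial order-statistic intervals. Code (Python 3.11.15, numpy 2.4.6, scipy 1.17.1, matplotlib 3.10.9) was tested on simulated data. Libraries were grouped from the labels, and no test was run.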

Additional observations from a re-analysis of the deposited data

How the results depend on the processing

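The number of member genes fell to 321 where clusters less than 1000 nt apart were merged and to 160 where each cluster needed at least 2 models, against 853 as reported. It was 697 where clusters less than 100 nt apart were merged, 600 without models that start over a later exon, 714 with coding models only and 862 without regard to chromosome. Clusters of at least 2 models gave a shared coding start in 63.3% of genes and a median distance of 496 nt. Taking the longest 5' UTR of each cluster gave medians of 197 nt upstream and 226.5 nt downstream. The cause of these moves was not tested, beyond the smaller sets that some settings leave by construction. No paired analysis was possible because the catalogue has no value per library. Depth is unknown, so a first exon that is not in the catalogue cannot be called absent. Of the coding regions of members, 89 of 2750 ended within 2 nt of the model's 3' end and 27 began within 2 nt of its 5' end.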

Other observations

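Alternative last exons, defined in the same way from the 3' ends, were found in 1277 genes with 2797 last-exon clusters. In 160 genes both ends were alternative, which is 18.8% of the genes with alternative first exons and 12.5% of those with alternative last exons. Among all 4728 loci with at least 2 models, 27.0% had alternative last exons and 18.0% had alternative first exons, and the differences from these shares were not tested.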
